A study of Mus musculus with 40 samples.

Results

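The gene activity that sets the small intestine of control mice apart from their pancreas, kidney, ovary and heart is described here from messenger RNA sequencing. The study removed the p53 inhibitor Mdm2 in mice and sequenced RNA of 5 tissues 24 hours after p53 was activated. Of the 40 libraries in the series the 15 Tg libraries were used, 3 of small intestine and 12 of the other 4 tissues, 3 per tissue. By their labels the 3 Tg mice were C57BL/6j animals 60 days of age with the genotype Mdm2+/- Cag-CreERTg, so they carry 1 working copy of Mdm2 and a Cre transgene named for Cag, a promoter active in most tissues. The same 3 mice gave all 5 tissues, and whether they received the agent that activates Cre is not given in the sources used here. As each gave an ovary, all 3 were female. The other 25 libraries come from FMTg mice (Mdm2FM/- Cag-CreERTg), in which Mdm2 was removed, and they enter only where named. No wild type mouse was among the samples, and the stretch of small intestine that was taken is not given in the sources used here. Whole tissue was frozen, so fewer cells of a type and less RNA per cell cannot be told apart.

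The small intestine is lined by a single sheet of epithelium that is renewed from stem cells in its crypts. Absorptive enterocytes finish digestion with enzymes anchored in their brush border, take up the products through transporters and pack fat into chylomicrons, while goblet, Paneth, enteroendocrine and tuft cells secrete mucus, antimicrobial peptides, hormones and immune signals. Enterocytes close to the stomach and enterocytes close to the colon use different genes, and the tissue holds one of the largest populations of lymphocytes of the body.

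The 15 libraries held 9.87 to 17.4 M (mega) reads, and the 3 of small intestine 14.4 to 17.4 M. Levels below are normalised reads, the read number of a gene divided by the size factor of its library, listed for mouse 1, 2 and 3. Each library was checked with lists of marker genes, and several held reads of markers of other tissues. In small intestine replicate 1 the 12 cardiomyocyte markers took 0.631% of reads, against 0.00328% in replicate 2 and 0.0811% in replicate 3, and the 12 kidney tubule markers took 0.448%, against 0.010% and 0.0894%. The same lists took 4.55% to 5.34% of reads in the heart and 2.80% to 3.51% in the kidney. None of the 12 cardiomyocyte markers was at 0 reads in replicate 1, and 2 were at 0 in replicate 2. In ovary replicate 1 the 13 pancreatic acinar markers took 21.3% of reads, against 0.111% and 0.399% in the other ovaries and 37.1% to 42.7% in the pancreas, and in the 3 small intestine libraries they took 1.45% to 2.02%. In ovary replicate 3 the cardiomyocyte markers took 0.176%, against 0.00735% and 0.0143% in the other ovaries. Intestinal genes were read at low levels in other tissues too: the 17 Paneth cell genes took 0.454% to 0.774% of intestinal reads and 0.000750% to 0.0365% of reads elsewhere. The part of these reads in the results below was not tested, and counts are therefore also given without small intestine replicate 1 and ovary replicate 1, a choice made after these values were seen.

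**Figure D1:**
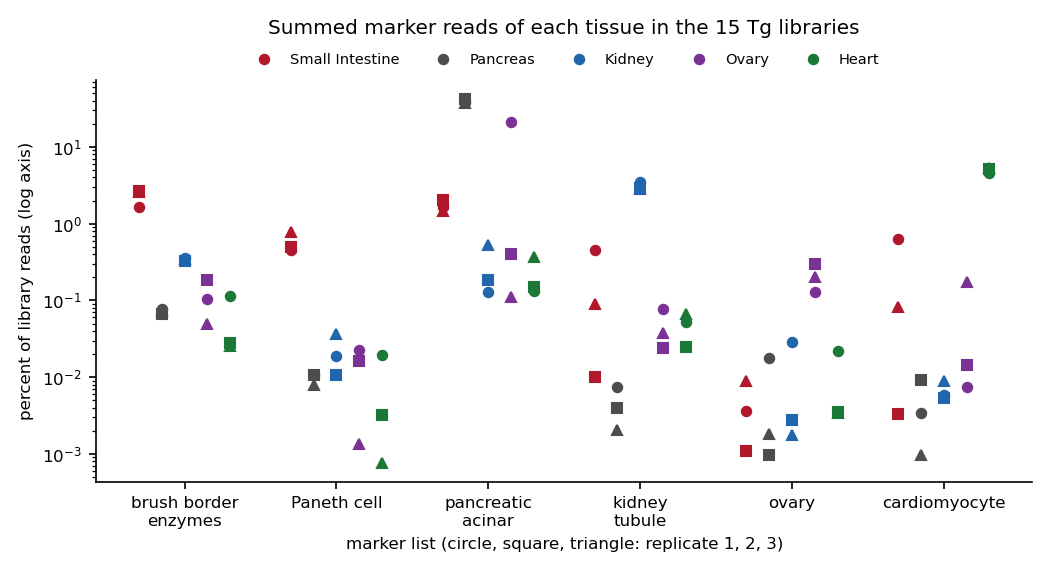
Percent of all reads of a library (log axis) that fell on 6 marker lists, for the 15 Tg libraries, 1 point per library, coloured by tissue and shaped by replicate. Each list is highest in its own tissue, acinar genes take 21.3% of ovary replicate 1, and small intestine replicate 1 lies above the other 2 intestines for kidney tubule and cardiomyocyte genes.

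Across all genes the small intestine differed widely from the other tissues. Of 17294 genes tested with limma, 5017 (29.0%) were higher in the intestine than the mean of the 4 other tissues and 4436 (25.7%) were lower, 54.7% in either direction, at a Benjamini-Hochberg adjusted p below 0.05. A stricter class asks for a distance from every tissue. A gene is called intestine-enriched where its log2 difference from each of the 4 tissues is at least 1 and the weakest of the 4 tests passes after adjustment, and intestine-depleted where all 4 differences are -1 or lower. By this rule there were 1066 enriched genes (6.16% of those tested) and 156 depleted genes (0.902%). The 3 intestinal libraries lay above all 12 others for 2144 genes (12.4%) and below all 12 for 760 (4.39%), and among the members of the 2 classes for 1057 of 1066 and 149 of 156. The classes were chosen from these same libraries, so the last 2 counts are no separate test. Enriched genes took 13.93% to 20.01% of the reads of the intestinal libraries and 0.858% to 3.16% of the reads of the others. Their median level was 5.51 times that of the highest other tissue, and 350 were at least 10 times above it. The tissue closest below was the ovary for 447 of them, the kidney for 230, the pancreas for 200 and the heart for 189. Over all 17294 genes tested the highest of the 4 was the ovary for 5406, the kidney for 3813, the pancreas for 3763 and the heart for 4312. Depleted genes stood nearer to the rest, with a median level of 43.0% of the lowest other tissue. Around the threshold, Fam83h (1.0018) and Ikbke (1.0023) entered the enriched class and St3gal6 (0.9958) did not, and Eid1 (-1.0001) entered the depleted class and Eid2 (-0.99995) did not. Set against single tissues, 5596 genes (32.4%) were higher than in the pancreas and 3627 (21.0%) lower, 5238 (30.3%) higher than in the kidney and 4354 (25.2%) lower, 4631 (26.8%) higher than in the ovary and 5094 (29.5%) lower, and 5436 (31.4%) higher than in the heart and 4961 (28.7%) lower. Without small intestine replicate 1 and ovary replicate 1 there were 1115 enriched genes, 997 of them among the 1066, and 364 depleted genes, 155 of them among the 156. Scaled to total reads instead of size factors, 64.3% of calls against the mean of the other tissues were higher, beside 53.1% here, and the median log2 difference of all genes was 0.08 in place of -0.03. That scaling gave 10194 genes higher and 985 lower than in the pancreas.

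The gene furthest above all other tissues was Sis (ENSMUSG00000027790.14, chromosome 3, 72888557 to 72967863 in GRCm38, the build of all coordinates here), which encodes sucrase-isomaltase, the brush border enzyme that splits sucrose and starch fragments. Its normalised reads were 30685, 56368 and 64772 in the small intestine and 0.836 to 2071 in the other 12 libraries. The groups did not overlap, the highest of the others being heart replicate 1. The log2 difference from the mean of the other tissues was 8.71 ± 1.47 (SE of the limma model, n = 3 against 12 libraries), with an adjusted p of 2.73e-04. Its weakest pairwise test passed at an adjusted p of 0.0141, and the enriched call was lost under 5 of 28 alternative settings. Apoa4 (ENSMUSG00000032080.6, chromosome 9, 46240696 to 46243459), an apolipoprotein of chylomicrons, followed with 44173, 107791 and 101438 normalised reads against 39.7 to 2951, and Rbp2 (ENSMUSG00000032454.9, chromosome 9, 98486115 to 98509781), which carries retinol inside enterocytes, with 8740.2, 20333 and 19404 against 6.62 to 643. All 3 were lowest in small intestine replicate 1, and so were 767 of the 1066 enriched genes, while 703 were highest in replicate 2. This order was not counted over all genes tested. The 25 enriched genes with the largest distance from the nearest tissue, predicted gene models left out, stood 23.2-fold (ovary nearest, Akp3) to 82.2-fold (Cyp3a25) above their highest other tissue by mean normalised reads, with a median of 55.0. Some of these tissue means rest mostly on 1 library. Before division by size factors Akp3 had 3, 1518 and 4 reads in the ovary. The 25 genes took 2.13% to 3.81% of the reads of the intestinal libraries and 0.00135% to 0.158% of the reads of the others. The highest of the others was ovary replicate 2, against 0.0514% and 0.00187% in the other ovaries. The source of these reads was not tested. By role the 25 genes are digestive enzymes (Sis, Alpi, Lct, Akp3, Tmprss15), lipid and retinoid carriers (Apoa4, Apoa1, Fabp2, Rbp2), drug and alcohol metabolising enzymes (Cyp3a11, Cyp3a13, Cyp3a25, Adh6a, Sult6b2), mucins and other cell surface proteins (Muc3, Muc13, Cdh17, Btnl6, Ms4a10, Lypd8, Clca4b), secreted products of goblet and Paneth cells (Tff3, Lyz1), the guanylin receptor Gucy2c and Cps1, which starts the urea cycle. Apoa1 and Apoa4 are neighbours on chromosome 9, Alpi and Akp3 on chromosome 1, and the 3 Cyp3a genes lie on chromosome 5. Alpi with Akp3, and the Cyp3a genes among themselves, are close copies whose reads the counting could have split.

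**Figure D2:**
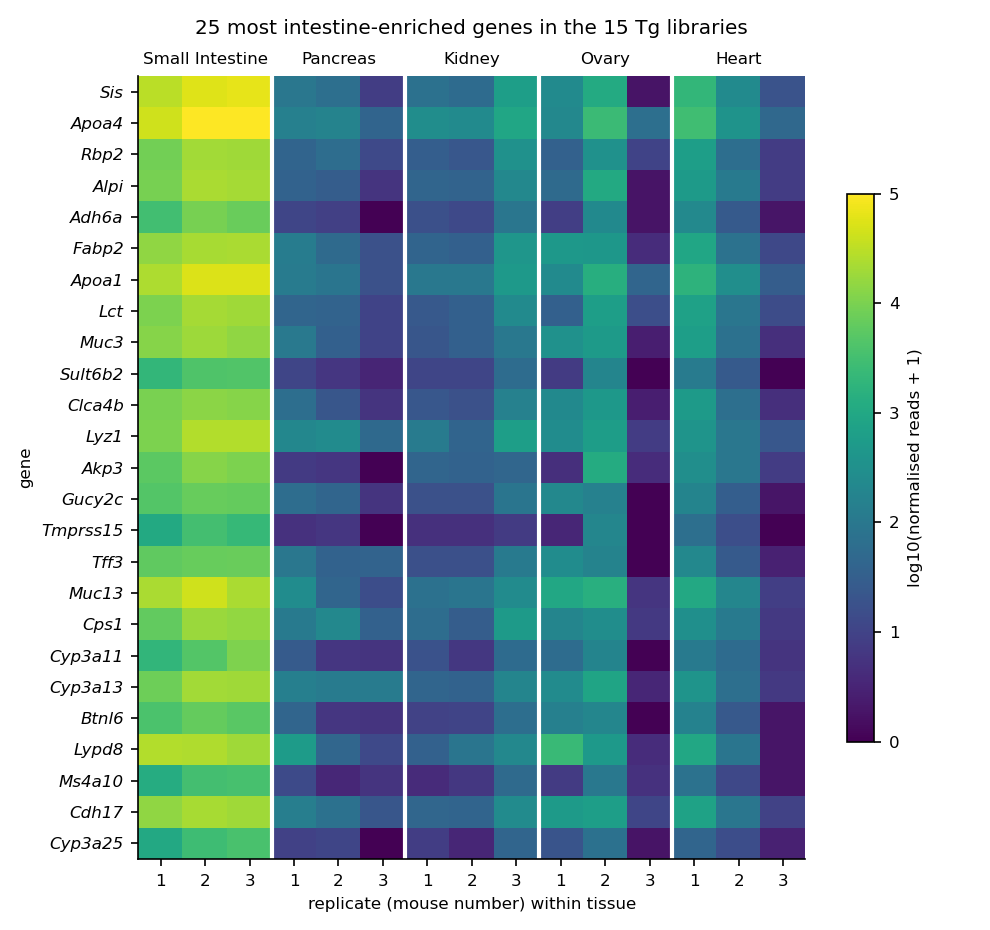
The 25 most intestine-enriched genes (rows, in order of their distance from the nearest tissue) in the 15 Tg libraries (columns, by tissue and replicate), coloured by log10 of normalised reads plus 1. The 3 intestinal columns are bright in every row, and heart replicate 1, ovary replicate 2 and kidney replicate 3 are brighter than the other libraries of their tissue in 25, 21 and 25 rows.

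The promoters of the 25 genes, which were read together in the same libraries, were searched for short motifs of factors known for intestinal genes: TTTATNG for the Cdx factors, AAAGTCC for the Hnf4 factors, GTTAAT for Hnf1 and AGATAA for the Gata factors, each on both strands in the 250 bases before the RefSeq start (GRCm38.p6). Of the 25 genes 21 had a promoter in the RefSeq table. The Cdx motif was in a promoter of 7 of the 21, Hnf4 in 5, Hnf1 in 6 and Gata in 4. At least 2 kinds of motif were in 1 promoter for 7 genes, a count that was not made over all genes tested. Of the 7 genes the 3 digestive enzymes and Rbp2 are shown, with the 250 bases written 5′ to 3′ on the strand of the gene. The motifs are in capitals, spelled as their reverse complement where the match lies on the other strand.
Sis (chr3:72967864-72968113, minus strand, an Hnf1 then a Cdx motif): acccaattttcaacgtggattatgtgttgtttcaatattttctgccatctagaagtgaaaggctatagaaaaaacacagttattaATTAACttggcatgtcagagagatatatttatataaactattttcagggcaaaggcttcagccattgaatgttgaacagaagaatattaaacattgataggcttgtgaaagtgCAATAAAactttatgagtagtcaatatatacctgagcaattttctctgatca
Rbp2 (chr9:98490287-98490536, plus strand, Hnf4, Gata and Cdx motifs): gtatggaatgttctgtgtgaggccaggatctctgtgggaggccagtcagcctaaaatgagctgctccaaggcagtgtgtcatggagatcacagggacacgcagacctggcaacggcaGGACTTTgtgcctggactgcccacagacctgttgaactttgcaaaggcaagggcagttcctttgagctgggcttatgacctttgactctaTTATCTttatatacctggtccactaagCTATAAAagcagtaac
Alpi (chr1:87101607-87101856, minus strand, a Cdx then an Hnf4 motif): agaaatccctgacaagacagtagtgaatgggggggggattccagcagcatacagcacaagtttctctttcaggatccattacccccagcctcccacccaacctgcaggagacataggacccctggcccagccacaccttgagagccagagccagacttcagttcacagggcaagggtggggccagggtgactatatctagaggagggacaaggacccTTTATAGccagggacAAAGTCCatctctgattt
Tmprss15 (chr16:79091098-79091347, minus strand, a Cdx then an Hnf1 motif): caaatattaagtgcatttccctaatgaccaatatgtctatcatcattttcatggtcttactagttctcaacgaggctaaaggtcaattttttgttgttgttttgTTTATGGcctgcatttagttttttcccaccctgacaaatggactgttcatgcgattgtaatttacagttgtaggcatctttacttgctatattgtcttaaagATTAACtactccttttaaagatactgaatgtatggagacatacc
In Sis the Cdx motif began 52 bases before the start, in Alpi 33 and in Rbp2 16, and the Hnf4 motif of Alpi began 18 bases before it. Over 1012 promoters of 829 enriched genes, 11.0% held the Cdx motif, 7.41% the Hnf4 motif, 6.52% the Hnf1 motif and 10.2% the Gata motif. The shares over 16754 promoters of all genes tested were 7.03%, 3.70%, 4.88% and 6.89%, and over all 32851 promoters that RefSeq lists 9.81%, 3.58%, 6.43% and 9.99%. Over 159 promoters of depleted genes they were 5.66%, 1.26%, 6.29% and 5.03%. A match is a run of letters and was not tested as a binding site.

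The factors that these motifs are named for differed in how far they were specific to the intestine. Of 30 transcription factors known in the intestine, 27 were higher than the mean of the other tissues, against 29.0% of all genes, and 10 were enriched, against 6.16%. Their median log2 difference was 2.38, where all genes stood at -0.03. Cdx2 (ENSMUSG00000029646.3, chromosome 5, 147300805 to 147307270), the homeodomain factor that gives the gut tube its intestinal character, had 1118, 1272 and 1274 normalised reads in the intestine and 0 to 85.4 elsewhere. Its relative Cdx1 had 864, 717 and 832, and Isx, a homeodomain factor that limits vitamin A uptake, had 1641, 1840.0 and 1959. The 3 mice lay close together for these genes, and no library of another tissue reached them. Hnf4g, the Hnf4 paralog of the gut, had 2405, 5869 and 4477 normalised reads and was 22.8-fold above the kidney, its highest other tissue. Hnf4a, which was named after its values were seen, had 10444, 11568 and 10659 in the intestine and 9979, 9021 and 9209 in the kidney, and the proximal factor Gata4 772, 2505 and 1909.6 against 1281, 1745 and 1368 in the heart, so neither was enriched. Creb3l3, which drives lipid genes, and Onecut2 were higher than the mean of the other tissues by 5.53 ± 0.78 and 5.66 ± 0.88 but did not pass for the enriched class. The pancreas held 497, 784 and 722 normalised reads of Creb3l3, and the ovary 239, 1154 and 182 of Onecut2. Foxa2 and Hes1 were among the factors that were not called.

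Brush border enzymes were higher throughout than the mean of the other tissues, but not than each tissue. All 20 listed were higher than the mean of the other tissues, 13 were enriched, and their median log2 difference was 6.04. Together they held 218142 to 392375 normalised reads per intestinal library, against 40438 to 45972 in the kidney, where several of them also serve the brush border of the tubule. Mep1a was lower in the intestine than in the kidney, with 7901, 890 and 2105 against 18311, 15390 and 17560 reads before division by size factors. Lct (ENSMUSG00000026354.8, chromosome 1, 128284756 to 128328318), lactase, had 10360.3, 21303 and 19654 normalised reads in the intestine against 9.34 to 734 elsewhere, 61.2-fold above the heart, and Alpi, the intestinal alkaline phosphatase that detoxifies lipopolysaccharide, 9226, 23598 and 21664 against 0.836 to 1072. The heart held 783, 90 and 14 reads of Lct before division by size factors, most of them in replicate 1. Tmprss15, enteropeptidase, which activates trypsinogen, was at a lower level with 1108, 3214 and 2194 normalised reads and still lay above all 12 other libraries (0 to 199.96). The peptidase Naaladl1 was higher by 6.88 ± 1.15 (adjusted p = 2.51e-04).

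Transporters were higher as well, and the kidney held several of them. Of 33 nutrient and ion transporters 28 were higher than the mean of the other tissues and 6 were enriched, with a median log2 difference of 3.96. The peptide transporter Slc15a1 had 4533, 6636 and 6728 normalised reads and was enriched, 25.7-fold above the ovary, and so was Slc26a3, a chloride and bicarbonate exchanger, with 3461, 4147 and 3844. Slc5a1, the sodium-coupled glucose transporter, had 19998, 33015 and 35792 in the intestine and 1923, 2348 and 2775 in the kidney. It was higher than the mean of the other tissues by 6.46 ± 0.97 (adjusted p = 1.10e-04), but its weakest pairwise test, against the kidney, did not pass for the enriched class (adjusted p = 0.0769). Slc6a19, which takes up neutral amino acids, had 6982, 11075 and 10157 in the intestine and 5879.5, 3459.6 and 4116 in the kidney, a log2 difference of 1.08 ± 0.80. For both the kidney was the highest other tissue. The 5 that were not called were Slc3a2, Slc39a5, Slc10a2, Trpv6 and Atp12a.

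Genes of fat absorption included some of the most abundant transcripts of the tissue. Of 26 listed, 21 were higher, 2 were lower and 16 were enriched (median log2 difference 4.22). Fabp1 and Fabp2 bind fatty acids in the enterocyte, and Fabp1 had 8719, 29221 and 28303 normalised reads, with 7.53 to 799.6 elsewhere, and Fabp2 14781, 21737 and 23612, with 3.35 to 908. Apoa1 had 24663, 54642 and 55170.0 and was 66.4-fold above the heart, which held 1812, 296 and 30 reads of it before division by size factors. Npc1l1, the cholesterol transporter of the brush border, was higher by 7.17 ± 0.94 (adjusted p = 3.67e-05). By reads per exon length, Apoa4 ranked 5, Fabp1 6, Apoa1 7, Fabp2 15 and Rbp2 18 among all genes of the file. The 2 lower genes were Scarb1, a lipoprotein receptor, and Plin2, which coats lipid droplets, and Cd36, Bco1 and Clps were not called.

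Detoxifying enzymes were higher as a group. Of 34 genes of xenobiotic metabolism 33 were higher, 1 (Gstm1, a glutathione transferase) was lower and 19 were enriched, with a median log2 difference of 5.03. Cyp3a11 and Cyp3a25, cytochromes that oxidise drugs and steroids, had 1978, 4526 and 10933 and 1059, 2858 and 3615 normalised reads, and Cyp3a13 7948, 19979 and 19324. Cyp3a11 differed widely between the mice, and the other 12 libraries held 0 to 178 normalised reads of it. Cyp2c65, a cytochrome of fatty acid oxidation, had 1435, 1434 and 2012, and the sulfotransferase Sult1b1 2505, 4499 and 3791.

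Of 17 Paneth cell genes in the file 16 were higher than the mean of the other tissues and 15 enriched (median log2 difference 5.13). Lyz1, the lysozyme of Paneth granules, had 10503, 26782 and 26297 normalised reads against 6.69 to 635 elsewhere, and Defa24, an alpha-defensin, 15604, 21262 and 33369 against 4.18 to 1169.5. Ang4, an antimicrobial ribonuclease, had 4826, 2487 and 6682, and the lectin Itln1 8894, 10930.2 and 15646. For the defensins, which are near-identical copies, reads of single genes are uncertain, and Habp2 was the 1 gene not called. Mouse 3 was highest for Defa24, Ang4 and Itln1, and mouse 2 for Lyz1. Other members, Defa21, Defa22 and Mptx1 among them, were highest in mouse 1 and lowest in mouse 2. Before division by size factors, Defa21 had 1300, 26 and 284 reads and Mptx1 6395, 24 and 1233. The enriched calls of Ang4 and Defa24 were lost under 9 and 8 of 28 alternative settings.

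Of 15 goblet cell genes 13 were higher and 7 enriched (median 5.17). Tff3, the trefoil peptide that stabilises mucus, had 5968, 6829 and 7293 normalised reads and was 45.8-fold above the ovary. Muc2, the gel-forming mucin, had 79117, 25206 and 35309 and Clca1, a protease of mucus, 49644, 17584 and 26182, with mouse 1 highest for both. Muc2 was higher by 7.04 ± 1.75 (adjusted p = 0.00414) but did not pass for the enriched class (adjusted p = 0.0774), and ovary replicate 1 held 10198 normalised reads of it. Retnlb, a bactericidal protein of goblet cells, had 2563, 237 and 703. The 2 genes not called were Creb3l1 and Zg16, a lectin that the pancreas also makes, with 21077, 31529.6 and 27215 in the intestine and 254109, 437287 and 299377 in the pancreas.

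Enteroendocrine and tuft cell genes were fewer in reads. Of 21 enteroendocrine genes 15 were higher, 1 (Cpe, a prohormone protease) was lower and 8 were enriched (median 2.51). Gip, the incretin of duodenal K cells, had 164, 928 and 587 normalised reads and 0 to 18.4 elsewhere, Sct (secretin) 90.9, 180.0 and 140.0 and Ghrl (ghrelin) 30.8, 145 and 147. For these 3 hormones mouse 1 was lowest. Tph1, which makes serotonin, was even over the mice with 329.9, 423 and 310.5, and Reg4 had 971, 1118 and 1489.6. Chgb, a granin shared with pancreatic islets, had 988, 2031 and 1449.6 against 191, 168 and 131 in the pancreas, and its weakest pairwise test did not pass (adjusted p = 0.0934). Of 16 tuft cell genes 14 were higher, 1 (Alox5ap, which serves leukotriene synthesis) was lower and 9 were enriched (median 1.91). Trpm5, the cation channel of taste-like signalling, had 482, 546 and 697 normalised reads against 0 to 41.3, and Pou2f3, the factor that specifies tuft cells, 28.5, 34 and 61.9 against 0 to 6.4.

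Genes of dividing cells were higher as a block. All 18 mitosis genes were higher, 6 were enriched, and their median log2 difference was 2.65. Mki67 had 1833, 2965 and 2707 normalised reads in the intestine and Top2a, a topoisomerase, 1664, 2486 and 2379. The ovary was the highest other tissue for both, with 203, 992 and 274 normalised reads of Mki67 and 414, 1221 and 760.3 of Top2a. Stem cell and Wnt genes separated less: 15 of 21 were higher, 2 (Znrf3, which removes Wnt receptors, and Bmi1, a Polycomb protein) were lower, and Olfm4 and Ascl2 were enriched, with a median of 0.87. Olfm4, a secreted product of crypt base cells, had 1590.0, 4803 and 3752 normalised reads and was 20.4-fold above the kidney. Lgr5, the receptor that marks crypt stem cells, had 143, 210.0 and 156 in the intestine and 159, 496 and 332 in the ovary. Ascl2, the stem cell factor, had 19.3, 27 and 31.4, and its enriched call (adjusted p = 0.0415) was lost under 17 of 28 alternative settings.

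**Figure D3:**
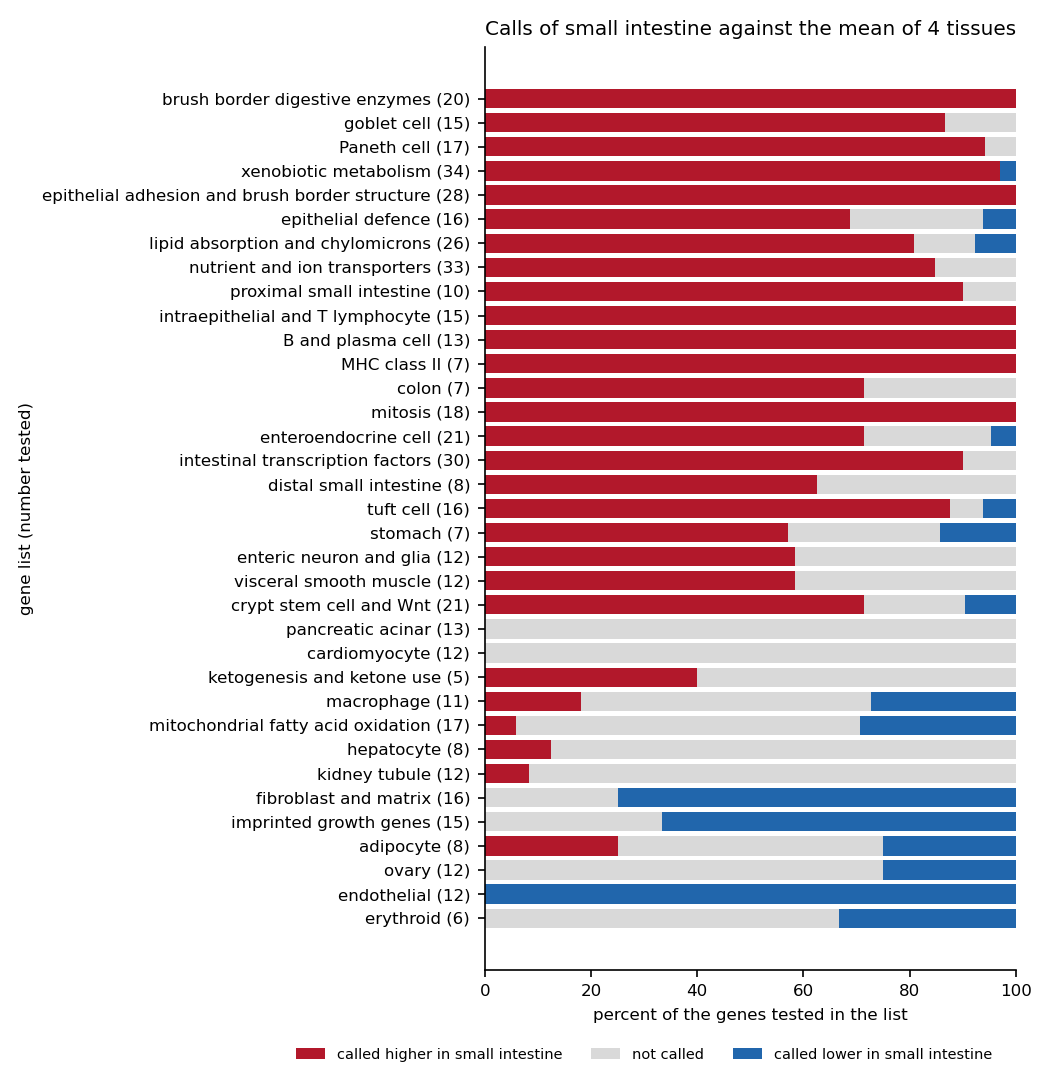
Share of the tested genes of each list (number in brackets) that were called higher (red), lower (blue) or neither (grey) in small intestine against the mean of the 4 other tissues, with lists ordered by median log2 difference. Epithelial, lymphocyte and mitosis lists are mostly red at the top, and all 12 endothelial genes are blue near the bottom.

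The epithelial frame was read as plainly as its products. All 28 genes of cell adhesion and brush border structure were higher than the mean of the other tissues and 12 were enriched (median 4.40). Single tissues exceeded the intestine for some of them. Before division by size factors, Cldn2 had 2609, 936 and 1229 reads in the intestine and 8289, 7586 and 9839 in the kidney. Krt18 had 4016, 2267 and 3466 in the intestine and 5070, 5595 and 7970 in the pancreas. Cdh17, the intestinal cadherin, had 14816, 21674 and 18998 normalised reads against 8.51 to 744, Myo1a, the motor of microvilli, 15019, 22817 and 21282 against 9.34 to 717, and Krt20, a keratin of villus cells, 11780.0, 16558 and 14597 against 8.51 to 651. Of 16 defence genes 11 were higher, 1 (Lcn2, which withholds iron from bacteria) was lower and 8 were enriched (median 4.24). Together the 16 held 142799 to 405311.5 normalised reads in the intestine and 538054.5 to 743017.5 in the pancreas. Pigr, which carries IgA across the epithelium, had 35907, 71330.3 and 52895 normalised reads, 22.3-fold above the pancreas. Lypd8, which keeps flagellated bacteria away from the epithelium, had 26978, 25926 and 19254, and 2406 in ovary replicate 1. The enriched calls of Pigr and Lypd8 had adjusted p of 0.0403 and 0.046 and were lost under 14 and 17 of 28 alternative settings. Duox2, an oxidase of the epithelial surface, was highest in mouse 1 (5058, 821 and 1157). The 4 defence genes that were not called were Reg3a, Reg1, Saa1 and Nos2.

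All 15 T cell and intraepithelial lymphocyte genes were higher and 14 were enriched (median 3.32), and Cd2 was the 1 that was not enriched. Their summed level was 2261 to 5104 normalised reads in the intestine and 92.3 to 295 in the other 12 libraries. Gzma, a granule protease, had 711, 1452 and 1047 normalised reads against 0 to 52.5, Cd8a 180.4, 455 and 284 against 4.67 to 18.7, and Ccr9, the receptor that homes lymphocytes to the small intestine, 146, 292 and 177 against 0 to 14.1. Every other library was below the intestine for these 3 genes, and mouse 2 was highest and mouse 1 lowest for each. The log2 difference of Cd8a was 4.17 ± 0.27 (adjusted p = 1.73e-07). All 13 B and plasma cell genes were higher and 9 were enriched (median 3.05). Jchain, which joins the IgA dimer, had 7355, 14289 and 17145 normalised reads against 47.3 to 811, and the B cell receptor chain Cd79a 70.1, 201 and 128 against 0.785 to 30.4.

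All 7 MHC class II genes were enriched, with a median log2 difference of 2.92. Cd74, the invariant chain, had 8912, 10801 and 6038 normalised reads in the intestine and 614 to 1335 elsewhere, a difference of 3.10 ± 0.17 (adjusted p = 5.97e-08), and the transactivator Ciita 993, 1680.0 and 747 against 51.1 to 161. Macrophage genes did not follow: of 11, 2 (Csf1r and Cx3cr1) were higher, 3 (Cd68, Mrc1 and Cd14) were lower and none was enriched, with a median of 0.04. Of all genes 29.0% were higher and 25.7% lower, so the share of lower macrophage genes was near that of all genes. Cx3cr1, which marks gut macrophages, had 132, 179 and 199 normalised reads and was higher by 1.58 ± 0.34, and Mrc1, a scavenger receptor, had 648, 381 and 630.5 in the intestine against 1985, 1333 and 2146 in the heart.

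Genes of the muscle and nerve layers of the gut wall were read in all 3 libraries. Of 12 visceral smooth muscle genes 7 were higher and none enriched (median 1.22). Actg2, the enteric smooth muscle actin, had 992, 525 and 502 normalised reads, below the ovary with 1499, 1559 and 1926, and Myh11, a smooth muscle myosin, 6606, 3499 and 4135 against 3217, 6636 and 5551. Without small intestine replicate 1 and ovary replicate 1, 4 were higher and 1 lower. Of 12 genes of neurons and glia 7 were higher, 5 were not called and 4 were enriched. Together the 12 held 649 to 822 normalised reads in the intestine, 1497 to 1573 in the ovary and less than the intestine in the other tissues. Among the enriched genes Vip, a relaxing neuropeptide, had 143, 205 and 251 against 0 to 30.8 elsewhere. Chat, which makes acetylcholine, had 36.2, 28 and 38.1 against 0 to 5.62, and glial Gfap 42.4, 24 and 51.4.

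The 3 intestinal libraries differed in genes that mark position along the gut. Of 10 genes of the proximal small intestine 9 were higher and 3 (Lct, Fabp1 and Adh6a) enriched, and mouse 1 was lowest for 7 of the 10. Onecut2 had 1229, 5871 and 4277 normalised reads, Gata4 772, 2505 and 1909.6 and Pdx1, the duodenal and pancreatic factor, 116, 521 and 284. Of 8 distal genes 5 were higher and none enriched, and without small intestine replicate 1 there were 2. Fabp6, the bile acid binding protein of the ileum, had 1965, 1 and 391 normalised reads, so it was highest in mouse 1 and at 1 read in mouse 2. Slc10a2, the ileal bile acid transporter, had 2295, 12 and 451, and Fgf15, the ileal hormone that restrains bile acid synthesis, 17, 1 and 1.9. The kidney also held Slc10a2, with 2767, 2259 and 1876 reads before division by size factors, beside 2978, 12 and 474 in the intestine. Mouse 1 was highest for 5 of the 7 colon genes and mouse 2 lowest for 6. Car1, a carbonic anhydrase of the colon, had 9613, 1 and 2038 and did not pass (log2 difference 4.68 ± 2.25, adjusted p = 0.0954), Aqp8 1524, 17 and 345 and Hoxb13, a homeobox gene of the hindgut, 83.2, 1 and 30.5. Of the 7 colon genes 5 were higher, and the 7 together held 16037, 2461 and 5488 normalised reads. The bile acid exporter subunits Slc51a (1454, 1261 and 1167) and Slc51b (526, 379 and 367) were also highest in mouse 1, but lowest in mouse 3, close to mouse 2. Replicate 1 is also the library with reads of heart and kidney genes, and the part of the stretch of gut sampled in these differences was not tested. Stomach genes were at 17.7, 2 and 4.76 (Gkn2) and 13.9, 5 and 4.76 (Tff1) normalised reads, both enriched. Both were highest in replicate 1, and the enriched call of Tff1 was lost under 10 alternative settings and that of Gkn2 under 6. Tff2, which was not called, was at 541, 764 and 498 against 19895, 26369.5 and 17908 in the pancreas.

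**Figure D4:**
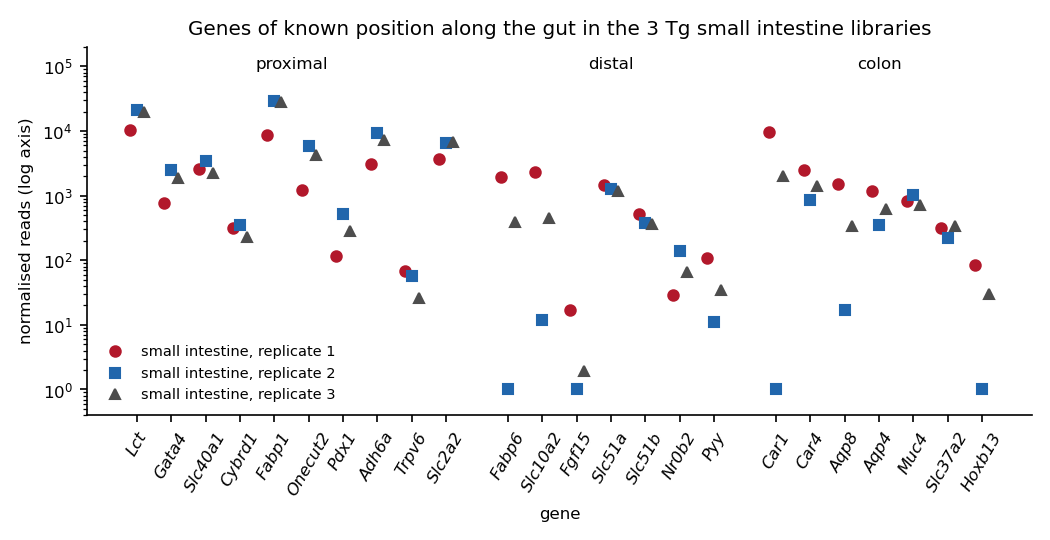
Normalised reads (log axis) of 10 proximal, 7 of the 8 distal and 7 colon genes in the 3 Tg small intestine libraries, 1 point per library. Replicate 1 is lowest for most proximal genes and highest for Fabp6, Slc10a2, Car1 and Hoxb13, for which replicate 2 is lowest.

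Depleted genes were fewer and closer to the other tissues. The furthest was Six4 (ENSMUSG00000034460.9, chromosome 12, 73099609 to 73113456), a homeobox factor of muscle and kidney development, with 64, 7 and 20 normalised reads in the intestine and 105 to 290.3 elsewhere. Its mean was 25.7% of the lowest other tissue, the log2 difference was -2.62 ± 0.34 and the adjusted p was 3.83e-05. Sfrp2, a secreted Wnt modulator, had 8.48, 0 and 8.57 normalised reads against 22.7 to 85.3, with 0 reads in mouse 2, and Loxl1 (ENSMUSG00000032334.10, chromosome 9, 58287738 to 58313186), which crosslinks elastin, 151, 42 and 91.4 against 271 to 717. For all 3 the intestine did not overlap the other tissues. The 25 depleted genes furthest below the nearest tissue stood at 16.0% (D7Ertd443e) to 37.2% (Fkbp9) of their lowest other tissue, with a median of 32.4%. By role they include extracellular matrix genes (Loxl1, Lox, Adamts5), fatty acid and glycerolipid genes (Slc27a1, a fatty acid transporter, and Gpam, the first enzyme of triglyceride synthesis), regulators of vesicles and membranes (Rab11fip5, Pacsin3, Tspan4), the cytokine receptor Lifr, the semaphorin receptor Plxnb1, the cysteine protease Ctsl and the nuclear factors Nfic, Vgll3 and Six4. In each of the 25 all 3 intestines lay below the other 12 libraries, against 4.39% of all genes tested. The 25 were chosen by their distance in these same libraries, so this is no separate test. Slc27a1 had 958, 281 and 380.0 normalised reads in the intestine against 1488 to 8148, and Gpam 1133, 381 and 552 against 1875 to 5287. Lifr had 1254, 931 and 963 against 2661 to 11176, and Nfic, a nuclear factor I protein, 535, 333 and 386 against 1096 to 3601, with the smallest adjusted p of the 25 (2.65e-07). Lox, Sfrp2 and 5 others of the 25 did not pass in FMTg libraries.

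**Figure D5:**
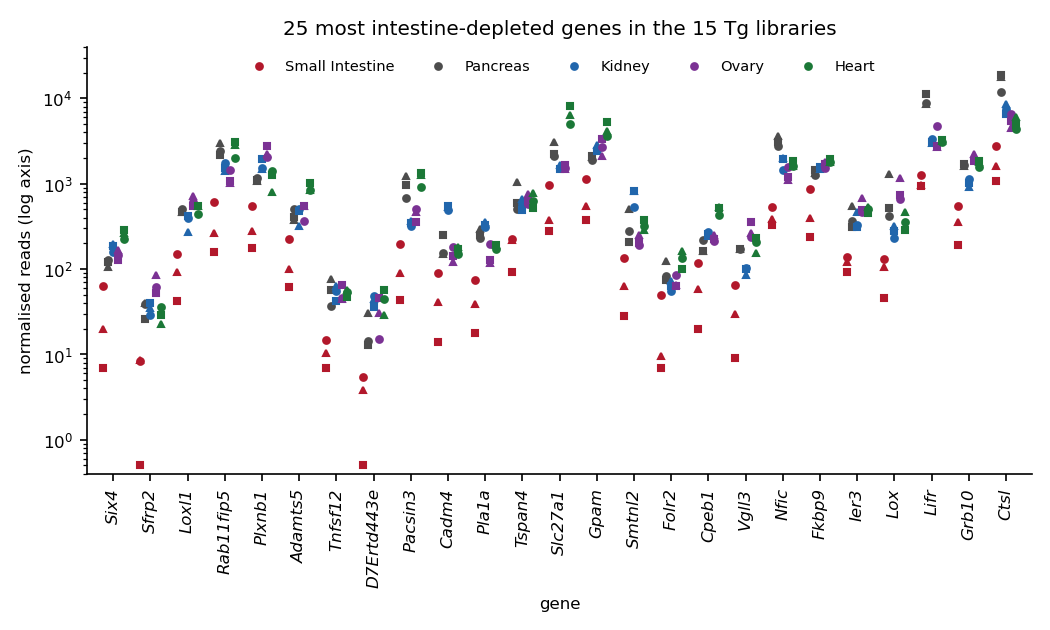
Normalised reads (log axis) of the 25 most intestine-depleted genes in the 15 Tg libraries, coloured by tissue, with circles, squares and triangles for replicates 1, 2 and 3 and values of 0 drawn at 0.5. The small intestine (red) is lowest for every gene, and its replicate 1 lies above its replicate 2 throughout.

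Of the 156 depleted genes, 146 were highest among the 3 intestines in replicate 1 and 149 were lowest in replicate 2. This order was not counted over all genes tested, so a trait of the class and a shift of whole libraries cannot be told apart. Over all genes tested, replicate 1 exceeded both other intestines by at least 1 on the log2 scale for 1268. Replicate 2 lay at least 1 below both others for 1144. Among the 4 other tissues 549 of the 1268 were highest in the kidney and 531 in the heart, against 3813 and 4312 of all 17294. Without small intestine replicate 1 there were 371 depleted genes, without small intestine replicate 2 there were 62, and without mouse 2 or mouse 3 in every tissue 21 and 28. The number of depleted genes therefore turns on these libraries, and the part of the heart and kidney reads in it was not tested.

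Stromal genes were lower in the intestine without reaching the depleted class. All 12 endothelial genes were lower (25.7% of all genes were), with a median log2 difference of -1.43 and none depleted. Eng, a receptor of TGF-beta in vessels, had 614, 247 and 359 normalised reads in the intestine and 637 to 3145 elsewhere, and Egfl7, a secreted endothelial protein, 411, 189 and 221 against 309 to 2319.6. The heart was highest for both, with 2519.7, 3145 and 2953 normalised reads of Eng, and the pancreas stood near the intestine for Egfl7 with 341, 309 and 383. Of 16 fibroblast and matrix genes 12 were lower and none higher (median -0.97). Sparc, a matrix glycoprotein, had 1737, 693 and 1283 against 1959 to 9442, and Bgn, a proteoglycan, 903, 744 and 761 against 995 to 2703, a difference of -1.09 ± 0.08 (adjusted p = 5.46e-07). Col1a1 had 1259, 887 and 1649.6 in the intestine, above the kidney (729, 728 and 527) and below the ovary (15789, 17867 and 21388). The genes not called were Col6a1, Col6a2, Fn1 and Postn.

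Imprinted growth genes were lower together. Of 15 in the file 10 were lower, none was higher and Grb10 was depleted, with a median of -1.22. Grb10, an adaptor that restrains insulin signalling, had 543, 193 and 357 normalised reads against 912 to 2253, 35.6% of the kidney, and Plagl1, a zinc finger factor, 98.7, 39 and 88.6 against 148 to 1005. Mest had 36.2, 17 and 33.3, close to the kidney with 44.7, 43.6 and 44.9. Without small intestine replicate 1 the count of lower genes was 10, and over the alternative settings it was 6 to 13. Mitochondrial fatty acid oxidation stood near the middle of the tissues: of 17 genes 5 were lower, a share near the 25.7% of all genes, and 1 (Hadh) was higher, with a median of -0.10. Over the alternative settings 1 to 10 were lower. Acadm, a dehydrogenase of medium chains, had 5409, 2009 and 2536 normalised reads, below kidney (20814, 17502 and 21112) and heart (13525, 17891 and 15868) and above pancreas (1104, 1001 and 1114).

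Markers of other organs were mostly not called. None of the 13 pancreatic acinar genes was called in either direction against a mean that includes the pancreas (median 0.43). Pnlip, pancreatic lipase, had 30994, 20173 and 20101 normalised reads in the intestine, 709510.3, 948468 and 603409 in the pancreas, 1363, 1499.6 and 6017 in the kidney and 2533, 3237 and 5367 in the heart. All 3 intestines lay above kidney and heart and below the pancreas, and the pairwise differences from kidney (adjusted p = 0.0662) and heart (adjusted p = 0.122) did not pass. None of the 12 cardiomyocyte genes was called (median 0.36), and Ckm, the muscle creatine kinase, had 1989, 27 and 256. Of 12 kidney tubule genes 1 (Cubn, the vitamin B12 receptor that the ileum also makes, 6009, 1032 and 2193) was higher, and without small intestine replicate 1 none was higher and 2 were lower. Of 12 ovary genes 3 (Inhbb, Amh and Fshr) were lower, a share near the 25.7% of all genes, and without small intestine replicate 1 only 1 was. Of 8 hepatocyte genes 1 (Tat) was higher, and without small intestine replicate 1 none was higher and 2 were lower. Of 6 erythroid genes Hba-a2 and Hbb-bt, globin genes with near-identical partners, were lower, and all 6 were lower without small intestine replicate 1. Hbb-bs, adult beta globin, had 7029.9, 252 and 945 normalised reads in the intestine and 62565, 150703 and 20939 in the heart. Of 8 adipocyte genes 2 (Plin1 and Fabp4) were lower, a share near the 25.7% of all genes, or 5 without small intestine replicate 1. Cidec and Pck1 were higher, a share near the 29.0% of all genes, or 1 gene without that library. Cidec, which enlarges lipid droplets, had 712, 980.0 and 972, and Pck1, an enzyme of glucose synthesis, 7663, 4266 and 7018 against 36339.6, 108507 and 139925 in the kidney.

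The classes were then read in FMTg libraries, from other mice with another genotype, 5 libraries per tissue. Of the 1066 enriched genes 1056 could be tested there, 903 had all 4 differences at 1 or more and 736 passed as enriched, where 889 of 17279 genes tested did (5.14%). Of the 156 depleted genes 113 had all 4 differences at -1 or lower and 96 passed, against 243 of all genes tested (1.41%). Among the 25 most enriched genes all 25 had 4 differences of at least 1 and 20 passed, and Apoa1, Akp3, Cps1, Cyp3a11 and Cyp3a25 did not. Sis stood 7.79 above its nearest tissue there (7.70 in Tg), and Cyp3a11 3.21 (6.80 in Tg). Among the 25 most depleted genes 18 passed. The difference between the genotypes was not tested for these genes.

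Mdm2 itself (ENSMUSG00000020184.15, chromosome 10, 117688875 to 117710758), the gene the study removes in FMTg mice, had 1309, 1053 and 1476 normalised reads in the intestine of these controls, which carry 1 working copy, and 799 to 1357 in the other tissues. The groups overlapped, and the log2 difference of 0.34 ± 0.12 (adjusted p = 0.0333) was lost under 7 of 28 alternative settings. Trp53, which encodes p53, had 279, 420.0 and 406 normalised reads against 481, 517 and 506 in the ovary and 224, 177 and 153 in the heart, and its difference of 0.33 ± 0.12 (adjusted p = 0.0386) was lost under 13 of them.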

How the data were processed

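Whole tissue was frozen, RNA was taken up in Trizol and Illumina libraries were made, per the labels' protocols. The submitters' processing notes name STAR 2.6.0b, GRCm38 and DESeq2. The counter, the annotation, the use of strand and any gene filter are not given in the sources used here, so reads of overlapping or antisense genes may be shared. The values deposited by the authors are variance-stabilised log2 values of 18024 genes in 40 libraries, and the lowest, 1.65, stands for no reads. Inverting the transformation gave normalised reads, and dividing by the smallest step of each library gave whole reads for 100% of values (within 0.01). These gave the depth of each library, 9.87 to 17.4 M.

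The log2 values were fitted with limma 3.58.1 (trend, R 4.3.3) by tissue over the 15 Tg libraries, with 10 residual degrees of freedom, for the 17294 genes whose highest tissue mean lay at least 1 above the lowest value. Differences on this scale understate the change of low genes. Adjusted p-values are Benjamini-Hochberg over all genes tested, two-sided, and the enriched and depleted classes use the largest of the 4 pairwise p-values of a gene. The same 3 mice gave all tissues by the labels, so replicate numbers pair the libraries. Deviations from tissue means correlated at a median of 0.0578 over 30 pairs of libraries of the same mouse (-0.181 to 0.417) and -0.0246 over 60 pairs of different mice. The fit with the replicate block was an alternative.

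Genes were named by rule: the 25 enriched and 25 depleted genes furthest from the nearest tissue with predicted models left out, all proximal and distal genes, up to 6 per other list by size of difference, and Mdm2 with Trp53. Genes outside this rule, such as list members that were not called or went against their list, were named after their values were seen. The members and the 35 lists were chosen with earlier results of these data known. Ranks of genes within the intestine use reads per exon length. Coordinates are GENCODE M21 on GRCm38, with 18003 genes matched, and promoters are RefSeq's. Tested on simulated data with 200 changed genes, the fit called 100% of genes 4-fold higher and 88% of genes 2-fold higher in the intestine. The classes took in 96% of genes 4-fold and 18% of genes 2-fold higher, and 94% of genes 4-fold and 22% of genes 2-fold lower. Whether these shares hold for the measured libraries was not tested. Slc5a1 had 19998 to 35792 normalised reads in the intestine and 1923 to 2775 in the kidney and did not pass for the enriched class. Alternatives were the block, scaling, filter, trend, library weights, voom, the FMTg libraries in the fit, other limits on the difference, and each library or mouse left out. Some members of these lists, 1 distal gene among them, are not reported here.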

Additional observations from a re-analysis of the deposited data

How the results depend on the processing

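The count of enriched genes was 1066 and stayed within 1.5 times of that except at a difference of at least 2 (552) and without mouse 2 (382) or mouse 3 (498) in every tissue, with 382 to 1137 over single libraries and mice left out. The 156 depleted genes became 258 with library weights (which did not converge), 98 with all 40 libraries in the fit, 52 with total-read scaling, 364 without small intestine replicate 1 and ovary replicate 1, 2 at a difference of at least 2 and 441 with no minimum difference. With libraries or mice left out they were 21 to 371, from mouse 2 and small intestine replicate 1. Genes lower than the mean of the other tissues (4436) became 7036, 2590 and 2823 under those weights, the 40 libraries and total-read scaling, and 2456 to 4749 with libraries or mice left out, and with the other 12 libraries as 1 group 951 were lower and 2493 higher. Total-read scaling gave 10194 genes higher and 985 lower than in the pancreas and 2947 higher than in the ovary. All 40 libraries in the fit gave 2227 lower than in the pancreas and 2689 lower than in the kidney. With libraries or mice left out, 2343 to 3757 were lower than in the pancreas, 3374 to 5486 higher and 2745 to 4519 lower than in the kidney, and 2950 to 5520 lower than in the ovary, the lowest of each without mouse 3, and 3054 were lower than in the ovary without mouse 2. The cause of these changes was not tested. The replicate block gave 1087 enriched genes (1048 of the 1066) and 157 depleted genes (152 of the 156), and of the named genes Ascl2, Hba-a2 and Trp53 were among 4 that lost and 6 gained their call. No direction of a named call was reversed. With 3 libraries per tissue from 3 mice, p-values rest on the spread between 3 animals within tissues, pooled over all tissues. A pairwise test therefore also uses the spread in tissues that it does not compare. Levels near 1 read, as Fabp6 in mouse 2, are limited by depth.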
